A study of Mus musculus with 51 samples.

Results

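The genes described here are 40 ribosome biogenesis factors, the proteins that transcribe, modify, cleave and assemble ribosomal RNA in the nucleolus. They were given as a list of symbols, and all 40 were found once each among the 50600 gene IDs of every RNA count table. By role they are 4 RNA polymerase I transcription proteins, 3 box C/D and 4 box H/ACA small nucleolar ribonucleoprotein (snoRNP) proteins, 6 organisers of the nucleolus, 13 factors of the small ribosomal subunit and 10 of the large one. They were measured in mouse neutrophils of 2 kinds. The first were Ly6G+ cells sorted from CX3CR1GFP Ly6GCre-tdTomato mice, in which a dorsal air pouch had received 100 µg of zymosan, a yeast cell wall particle, on day 6, with harvest 4 h later. They gave 5 exudate, 2 membrane, 5 blood and 3 bone marrow RNA libraries by a small-bulk Smart-seq2 method, and 2 ATAC-seq libraries per tissue from 75000 cells each.

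The second kind were ER-Hoxb8 neutrophils, grown from progenitors held immature by an estrogen-dependent Hoxb8 transgene and allowed to mature for 5 days with G-CSF and SCF once estrogen was withdrawn. They received zymosan at 50 µg/ml or the vehicle DMSO for 2 h, with 2 poly-A libraries per group. Set 1 held cells labelled CEBPB-/-, JUNB-/- and WT, each with zymosan and with DMSO. Set 2 held cells labelled IRF5-/-, RELB-/- and WT, each with zymosan and with DMSO. A later table added RUNX1-/- and KLF6-/- cells with DMSO only, beside the same set 2 libraries. All of them, WT included, carry the Hoxb8 transgene. The labels give neither the lesion nor the number of clones per genotype, and do not say that the 2 libraries of a group came from separate cultures, so p-values measure the spread between these libraries, which may be technical.

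Ribosomes are built in the nucleolus. RNA polymerase I transcribes a long precursor, box C/D snoRNPs methylate it, box H/ACA snoRNPs convert uridines to pseudouridine, and successive assembly factors fold and cut it into the small and the large subunit. The genes are a textbook target of MYC, which binds the E-box CACGTG in many of their promoters, and their expression follows growth and division. In the granulocyte lineage nucleoli are prominent in early precursors and are lost as the cells mature.

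Read depth was 9237737 to 19106125 counted read pairs per tissue library, 19366969 to 32402492 in set 1 and 24031483 to 34263252 in set 2 and the later table. The 40 genes took 0.00135 to 0.0225% of the counts of a tissue library, 0.0321 to 0.104% in set 1 and 0.0214 to 0.161% in set 2 and the later table. The RNA of the targeted genes cannot check the labels, since the lesion is not given, and why this RNA persisted was not tested. Cebpb had 537 and 510 CPM (counts scaled to a common library total, with TMM factors) in CEBPB-/- cells with DMSO, against 479 and 536 CPM in WT cells. Junb had 486 and 511 CPM in JUNB-/- cells against 851 and 948 CPM in WT cells. Irf5 had 81.0 and 81.8 CPM in IRF5-/- cells against 95.7 and 101 CPM in WT cells, and Relb had 68.3 and 67.5 CPM in RELB-/- cells against 168 and 172 CPM in WT cells. Runx1 was higher, at 123 and 121 CPM, in the RUNX1-/- cells, against 46.0 and 47.7 CPM in WT cells, and Klf6 was higher, at 660 and 661 CPM, in the KLF6-/- cells, against 482 and 495 CPM in WT cells. Each line is therefore named below by its label.

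The promoters are shown for the members whose sequence or chromatin the data touch. RefSeq promoters of build GRCm38.p6, 250 bases before to 50 after the start, were matched for 34 of the 40 members. The E-box CACGTG, which reads the same on both strands, occurred in at least 1 window of 8 of these 34 members (23.5%). Among the 9417 matched genes tested in set 1, it occurred in at least 1 window of 1113 (11.8%). Counted by window and not by gene, it occurred in 2349 of all 32851 promoter windows (7.2%). It lay upstream of the start in Rrn3, Utp18 and Nop2, and at or after the start in Mybbp1a, Pes1, Pno1, Utp20 and Wdr43. The first base of the motif was at -215 and -48 in Rrn3, -20 in Utp18 and -60 in Nop2, counted from the start. A match is only a match of letters, and binding was not measured. The 250 bases before the start are given for the 3 members with an upstream E-box, and for Dkc1, which has none and whose start carried a listed change in accessibility; capitals mark the E-box.
Rrn3, chr16:13780449-13780698, plus strand: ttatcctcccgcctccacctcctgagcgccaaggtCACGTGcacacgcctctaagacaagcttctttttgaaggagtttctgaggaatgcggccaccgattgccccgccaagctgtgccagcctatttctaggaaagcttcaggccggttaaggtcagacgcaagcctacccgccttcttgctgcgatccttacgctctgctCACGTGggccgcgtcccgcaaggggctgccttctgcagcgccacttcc
Utp18, chr11:93885767-93886016, minus strand: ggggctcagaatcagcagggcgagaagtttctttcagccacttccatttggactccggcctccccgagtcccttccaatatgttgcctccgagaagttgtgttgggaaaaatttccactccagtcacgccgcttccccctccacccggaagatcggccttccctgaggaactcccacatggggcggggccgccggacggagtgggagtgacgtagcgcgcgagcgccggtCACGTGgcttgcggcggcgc
Nop2, chr6:125131633-125131882, plus strand: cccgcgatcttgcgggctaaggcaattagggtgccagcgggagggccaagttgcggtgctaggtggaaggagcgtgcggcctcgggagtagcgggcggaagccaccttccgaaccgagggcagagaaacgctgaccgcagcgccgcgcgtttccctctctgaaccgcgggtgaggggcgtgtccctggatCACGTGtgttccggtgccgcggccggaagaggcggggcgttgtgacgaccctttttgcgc
Dkc1, chrX:75095604-75095853, plus strand: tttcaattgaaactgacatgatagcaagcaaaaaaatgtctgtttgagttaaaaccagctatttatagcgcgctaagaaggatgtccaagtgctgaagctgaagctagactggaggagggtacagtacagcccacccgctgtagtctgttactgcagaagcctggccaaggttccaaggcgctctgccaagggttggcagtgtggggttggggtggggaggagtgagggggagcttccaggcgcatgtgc

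Open chromatin lay at the start of every member. Of the 47164 sites that the authors merged over their ATAC-seq libraries (mm10), at least 1 lay within 500 bp of the start of each of the 40 members. The share was 78.4% of the 12899 genes tested in set 1. The counts at 1000 bp and 5000 bp were 40 of 40 as well, against 80.9% and 87.8% of the tested genes. In the authors' deposited tables of differential sites, no member was overlapped by a more accessible site, or had one within 1000 bp of its start, in any of the 5 tissue comparisons listed. The share of tested genes with such a site was 8.7% for exudate over blood, 12.5% for exudate over bone marrow, 7.3% for membrane over blood, 11.2% for membrane over bone marrow and 2.05% for blood over bone marrow. Less accessible sites touched 1 member for exudate over blood (background 3.95%), 2 for exudate over bone marrow (8.36%), 1 for membrane over blood (3.36%), 4 for membrane over bone marrow (7.82%) and 0 for blood over bone marrow (1.62%). Among 40 members, the less accessible counts lie near these shares.

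The 2 listed sites at a start were those of Npm1, which encodes the nucleolar chaperone nucleophosmin, and of Dkc1, which encodes dyskerin, the pseudouridine synthase of box H/ACA snoRNPs. The Npm1 site, chr11:33162889-33163425, lay 49 bp from the start and was listed as less accessible in exudate (−log10 adjusted p 10.8 in the authors' deposited table) and in membrane (10.3), each against bone marrow. The Dkc1 site, chrX:75095565-75096271, lay 64 bp from the start and was listed for membrane against bone marrow, less accessible in membrane (4.09), and it spans the printed Dkc1 promoter. The other listed sites lay inside genes. They were a site in Rrp1b 4117 bp from its start (exudate over blood, 6.65), one in Rrn3 27940 bp away (membrane over bone marrow, 2.52) and one in Wdr12 27775 bp away, which the authors' deposited table assigns to the neighbouring Carf (exudate over bone marrow 5.55, membrane over blood 4.26, membrane over bone marrow 13.1). The authors' deposited table also assigns distant sites to Wdr75, which were more accessible than in bone marrow at 4 sites in exudate, 4 in membrane and 3 in blood, 63.0 to 86.5 kb from its start. In the same deposited table of the authors, sites less accessible than in bone marrow were assigned to Bysl (15.8 kb away; 11.3 in exudate and 6.34 in membrane) and Rrp12 (4.5 kb; 7.68 in exudate). More accessible ones were assigned there to Rrp12 (10.8 kb; 4.47 in exudate), Polr1a (128.7 kb in exudate, membrane and blood, and 147.7 kb in exudate) and Rrp1b (31.6 kb; 1.7 in membrane), again against bone marrow.

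In the tissues the 40 genes were at the edge of detection. The number of members with any count was 12 to 28 of 40 per exudate library, 15 and 17 in the membrane libraries, 18 to 33 in the blood libraries and 19 to 24 in the bone marrow libraries. Their summed level was 17.6 to 153 CPM in exudate (median 78.4), 249 and 34.7 CPM in membrane, 20.9 to 142 CPM in blood (median 45.9) and 180, 105 and 96.9 CPM in bone marrow. The ranges overlap, and within each library a few genes made up most of the sum, as the plot of summed levels per tissue library shows. The histone chaperone gene Npm1 had 7.53, 20.7 and 10.6 CPM in the 3 bone marrow libraries, while it was 0 in 4 of 5 exudate libraries (7.68 CPM in the other), 0 and 6.75 CPM in membrane, and 0 to 10.3 CPM in blood (median 0.214). The nucleolin gene Ncl was 0.396 to 51.9 CPM in exudate (median 2.27), 90.4 and 11.4 CPM in membrane, 2.08 to 28.2 CPM in blood (median 7.86) and 69.5, 2.56 and 4.86 CPM in bone marrow.

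**Figure D1:**
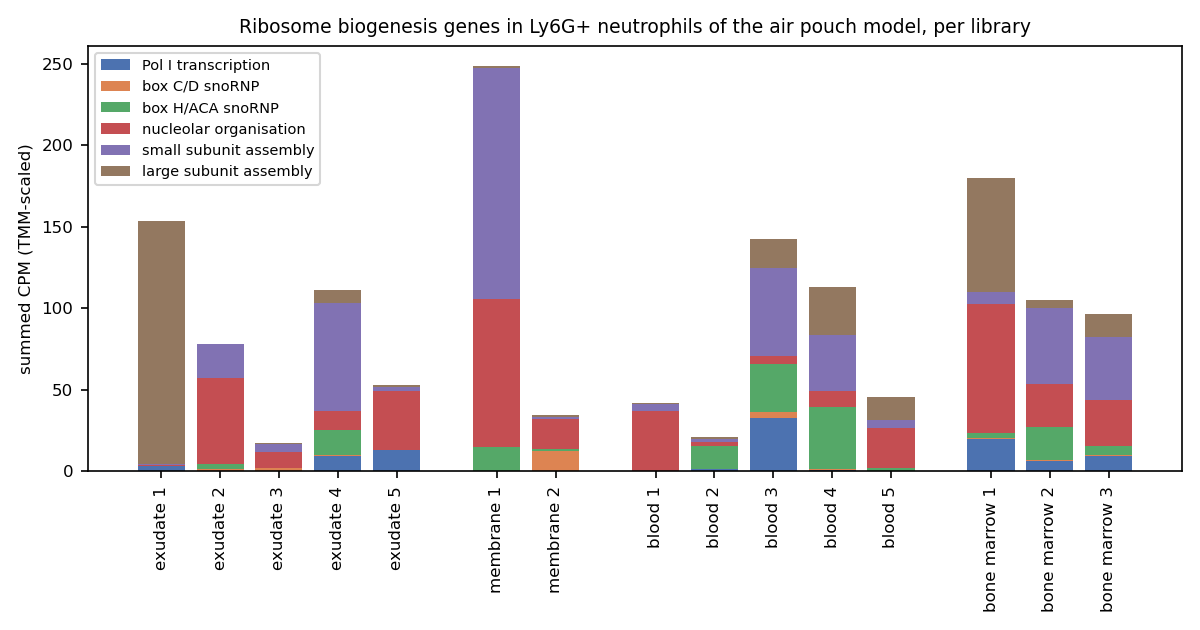
Summed TMM-scaled CPM of the 40 genes in each tissue library (bars, stacked by role; exudate, membrane, blood and bone marrow from left to right). Levels range from 17.6 CPM (exudate library 3) to 249 CPM (membrane library 1), and the role that makes up the bar changes from library to library within a tissue.

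The tissue columns carry a tag, 100 or 300, whose meaning the labels do not give: both membrane libraries have 300 and all 3 bone marrow libraries 100, so tag and tissue cannot be told apart between these 2 groups, while exudate and blood hold both tags. Tissue library numbers follow the columns and match no numbered sample. The column names also hold a number shared between tissues, whose meaning is not given either. No tissue comparison called a member, with or without the tag as a term, or with tag and number as a block. With that block 71 genes in all were called for exudate over blood and 290 for exudate over bone marrow, against 0 and 22 without it. The member median for exudate over blood was 0.30 with the block and -0.56 without it. In simulated data for exudate over bone marrow, 0% of true log2 changes of 1 or 2 were called. The absence of calls therefore does not show equal levels. Of the 40, 21 passed the filter on low counts, and edgeR's quasi-likelihood test with Benjamini-Hochberg adjustment called 0 of these 21 in each of the 6 comparisons. Among all 12330 genes it called 0 (0%) for exudate over blood, exudate over membrane and membrane over blood, 22 (0.178%) for exudate over bone marrow, and 2 (0.0162%) each for membrane over bone marrow and blood over bone marrow. At an unadjusted p under 0.05 it listed 2, 2, 1, 3, 2 and 2 members in that order of comparisons, against 2349, 1014, 963, 2848, 1637 and 1438 genes in all. DESeq2 called 1, 0, 2, 2, 2 and 0 members, all lower, against 1207, 915, 1282, 1701, 1705 and 322 genes in all. The smallest member p was that of Polr1c, a subunit shared by RNA polymerases I and III, which was at 0 in all 5 exudate libraries; against bone marrow its unadjusted p was 0.00291 and its adjusted p 0.106. In bulk samples fewer cells of a type and less RNA per cell cannot be told apart, here and in the ER-Hoxb8 libraries. Monocyte and macrophage markers summed to 872 to 1210 CPM in exudate, 1180 and 2010 CPM in membrane, 112 to 1140 CPM in blood and 5.55 to 165 CPM in bone marrow, and their part in these levels was not tested.

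In ER-Hoxb8 cells all 40 members passed the filter in every table. Per kilobase of gene model (TPM, transcript counts scaled to a fixed sum per library; mean ± SD of 2 libraries), the most abundant in set 1 WT cells with DMSO was Npm1 at 91.9 ± 0.0770 TPM. Noc2l, a histone acetyltransferase inhibitor and large subunit factor, followed at 51.3 ± 3.18 TPM, then Nop10, a small box H/ACA core protein, at 50.7 ± 2.46 TPM and Ncl at 47.6 ± 1.85 TPM; these 3 neighbours do not differ beyond their spread. Nhp2, the RNA-binding box H/ACA core protein, had 41.1 ± 1.11 TPM and Pes1, of the Pes1-Bop1-Wdr12 complex of the large subunit, 38.5 ± 2.35 TPM. The lowest were Polr1b, the second subunit of RNA polymerase I (1.45 TPM), Utp20, a scaffold of the small subunit processome (1.32 TPM), and Wdr12 (0.606 TPM). The gene lengths are the summed exons of the deposited gene models, which for Ncl come to 10188 bp.

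With DMSO most of the 40 genes were lower than in WT in 4 of the knockout lines and more fell than rose in RELB-/- cells, whereas nearly all were higher in RUNX1-/- cells. The 40 members summed to 396 and 402 CPM in CEBPB-/- and 294 and 298 CPM in JUNB-/- cells, against 593 and 599 CPM in the WT cells of set 1. They summed to 364 and 362 CPM in IRF5-/- and 442 and 438 CPM in RELB-/- cells, against 475 and 470 CPM in the WT cells of set 2. In the later table they summed to 1040 and 1040 CPM in RUNX1-/- and 464 and 451 CPM in KLF6-/- cells, against 546 and 540 CPM in WT cells. The groups do not overlap in any of these 6 comparisons. The comparisons within a set share their WT libraries, and the WT libraries of the later table are those of set 2, so the values of each are given side by side and no agreement between them is read.

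**Figure D2:**
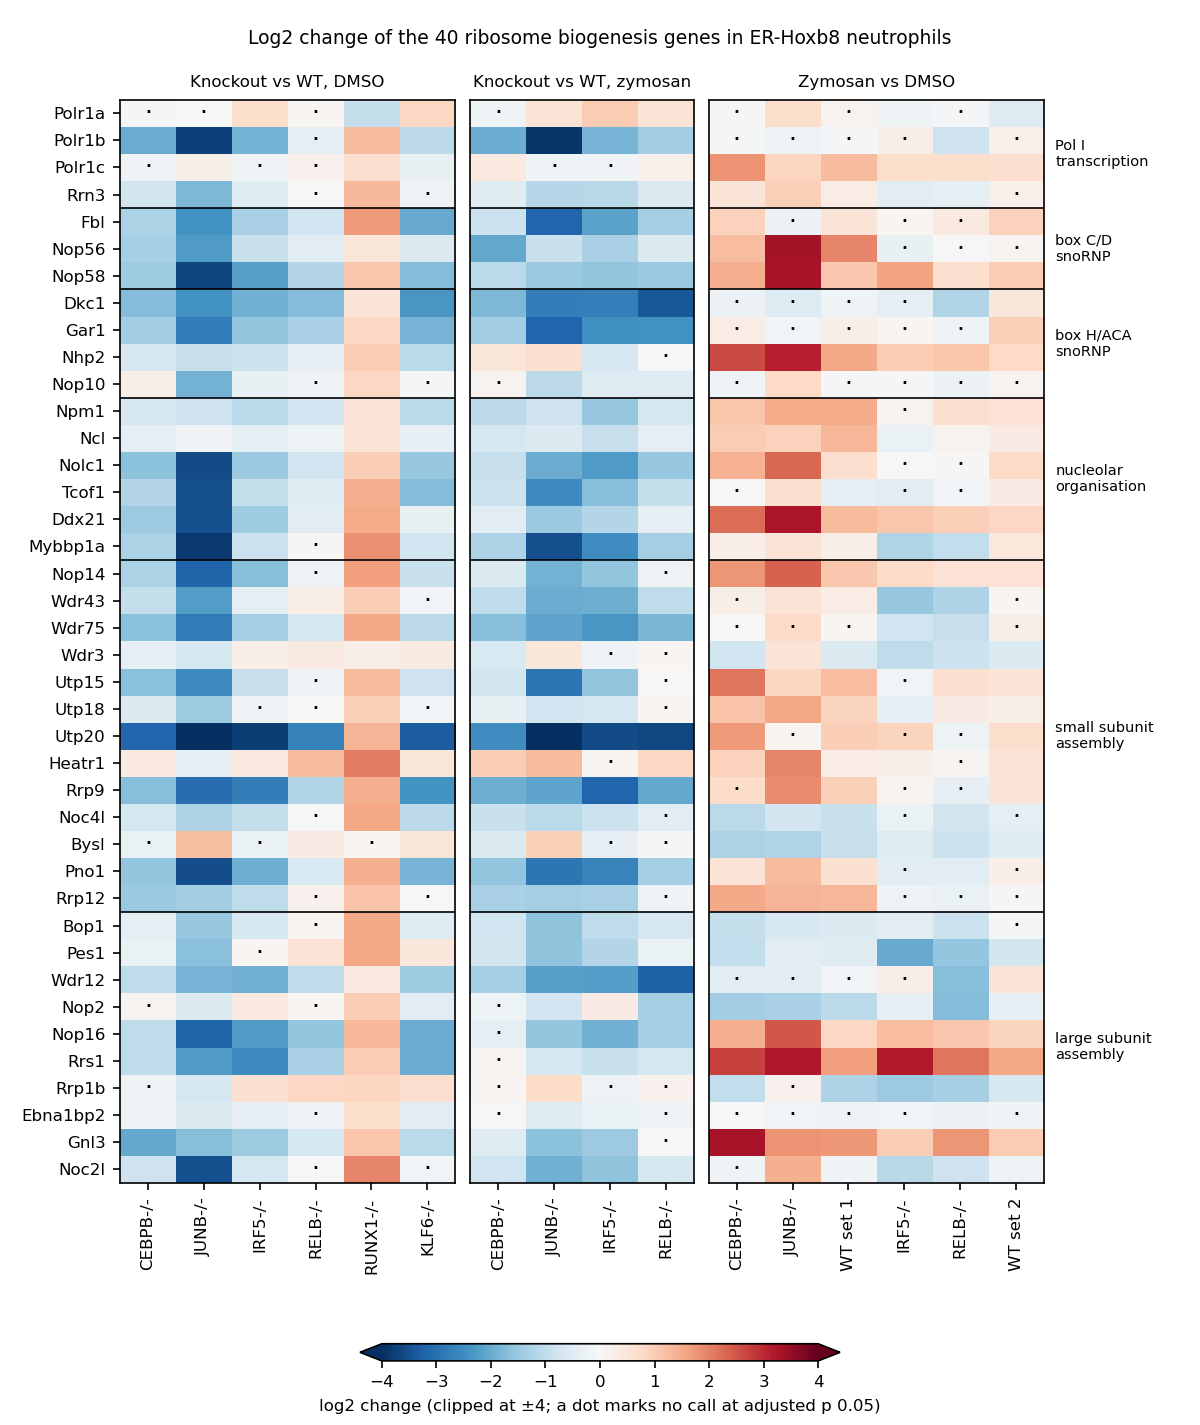
Log2 change of each of the 40 genes (rows, by role) in ER-Hoxb8 cells: each knockout over WT with DMSO (left) and with zymosan (centre), and zymosan over DMSO in each line (right); a dot marks a change not called at an adjusted p of 0.05, and colours are clipped at ±4. The RUNX1-/- column is red in all but Polr1a, while the other 5 DMSO columns are mostly blue, most deeply in JUNB-/-.

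In RUNX1-/- cells 38 of 40 members rose and 1 fell, against 37.7% of 14177 genes higher and 35.1% lower; 23 members rose by at least 2-fold, against 12.4% of genes. The median member change was 1.11 on the log2 scale and that of all genes 0.02. The largest rises by the naming rule were those of Heatr1, Noc2l and Mybbp1a. Heatr1, a small subunit processome scaffold that also supports RNA polymerase I, had 35.4 and 36.5 CPM in RUNX1-/- cells and 8.89 and 8.45 CPM in WT cells. Noc2l had 75.3 and 76.3 CPM in RUNX1-/- cells and 19.3 and 19.7 CPM in WT cells, and Mybbp1a, a nucleolar MYB-binding protein, had 49.8 and 49.1 CPM against 15.3 and 12.8 CPM. In each the RUNX1-/- libraries were clearly above WT, with log2 changes of 2.05 ± 0.07 (SE) for Heatr1 (adjusted p 6.94e-37), 1.96 ± 0.06 for Noc2l (8.35e-44) and 1.82 ± 0.07 for Mybbp1a (1.11e-36).

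Every role rose in RUNX1-/- cells. All 3 box C/D proteins rose. The methyltransferase Fbl (fibrillarin) had 13.9 and 14.1 CPM in RUNX1-/- cells and 4.63 and 3.97 CPM in WT cells (1.70 ± 0.12, adjusted p 1.7e-21). Its scaffold Nop58 had 18.7 and 19 CPM in RUNX1-/- cells and 8.56 and 8.77 CPM in WT cells, while the other scaffold, Nop56, differed less, at 17.1 and 16.7 CPM in RUNX1-/- cells and 11.3 and 12.8 CPM in WT cells (0.48 ± 0.08, adjusted p 4.77e-07). All 4 box H/ACA proteins rose as well. Nhp2 had 19.5 and 20.6 CPM in RUNX1-/- cells and 10.0 and 9.91 CPM in WT cells, and Nop10 had 18.9 and 19 CPM against 10.7 and 10.7 CPM.

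All 6 nucleolar organisers rose in RUNX1-/- cells, the 2 most abundant of them least. Npm1 had 49.3 and 50.1 CPM in RUNX1-/- cells and 33.9 and 34.5 CPM in WT cells (0.54 ± 0.05, adjusted p 5.58e-15), and Ncl had 222 and 216 CPM in RUNX1-/- cells and 150 and 148 CPM in WT cells (0.55 ± 0.03, 1.61e-28). Ddx21, an RNA helicase that couples polymerase I to rRNA processing, had 62.1 and 62.6 CPM in RUNX1-/- cells and 23.1 and 21.7 CPM in WT cells (1.48 ± 0.06, 4.16e-36). All 10 large subunit factors rose. Pes1 had 60.5 and 62.5 CPM in RUNX1-/- cells and 20.9 and 21.5 CPM in WT cells (1.53 ± 0.06, 5.75e-37), and its partner Bop1 had 23.1 and 22.5 CPM against 8.08 and 7.99 CPM.

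Of the 13 small subunit factors 12 rose in RUNX1-/- cells. Utp18, a processome protein, had 26.9 and 28.1 CPM in RUNX1-/- cells and 13.7 and 14.4 CPM in WT cells, and Wdr3 had 28.4 and 27.0 CPM against 24.7 and 22.9 CPM (0.22 ± 0.06, adjusted p 0.000794). The exception was Bysl, which acts late in small subunit maturation, at 8.73 and 7.74 CPM in RUNX1-/- cells and 8.02 and 7.69 CPM in WT cells (0.07 ± 0.11, adjusted p 0.597). Among the polymerase I genes, Rrn3, the initiation factor that links the polymerase to its promoter, had 19.2 and 18.3 CPM in RUNX1-/- cells and 7.93 and 7.45 CPM in WT cells (1.28 ± 0.09, 1.07e-20). Polr1c had 16.2 and 17.1 CPM in RUNX1-/- cells and 10.5 and 10.2 CPM in WT cells. Polr1a, the largest subunit of RNA polymerase I, was the 1 member that fell, with 17.9 and 18.5 CPM in RUNX1-/- cells and 35.4 and 35.5 CPM in WT cells (-0.96 ± 0.06, 2.3e-25).

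**Figure D3:**
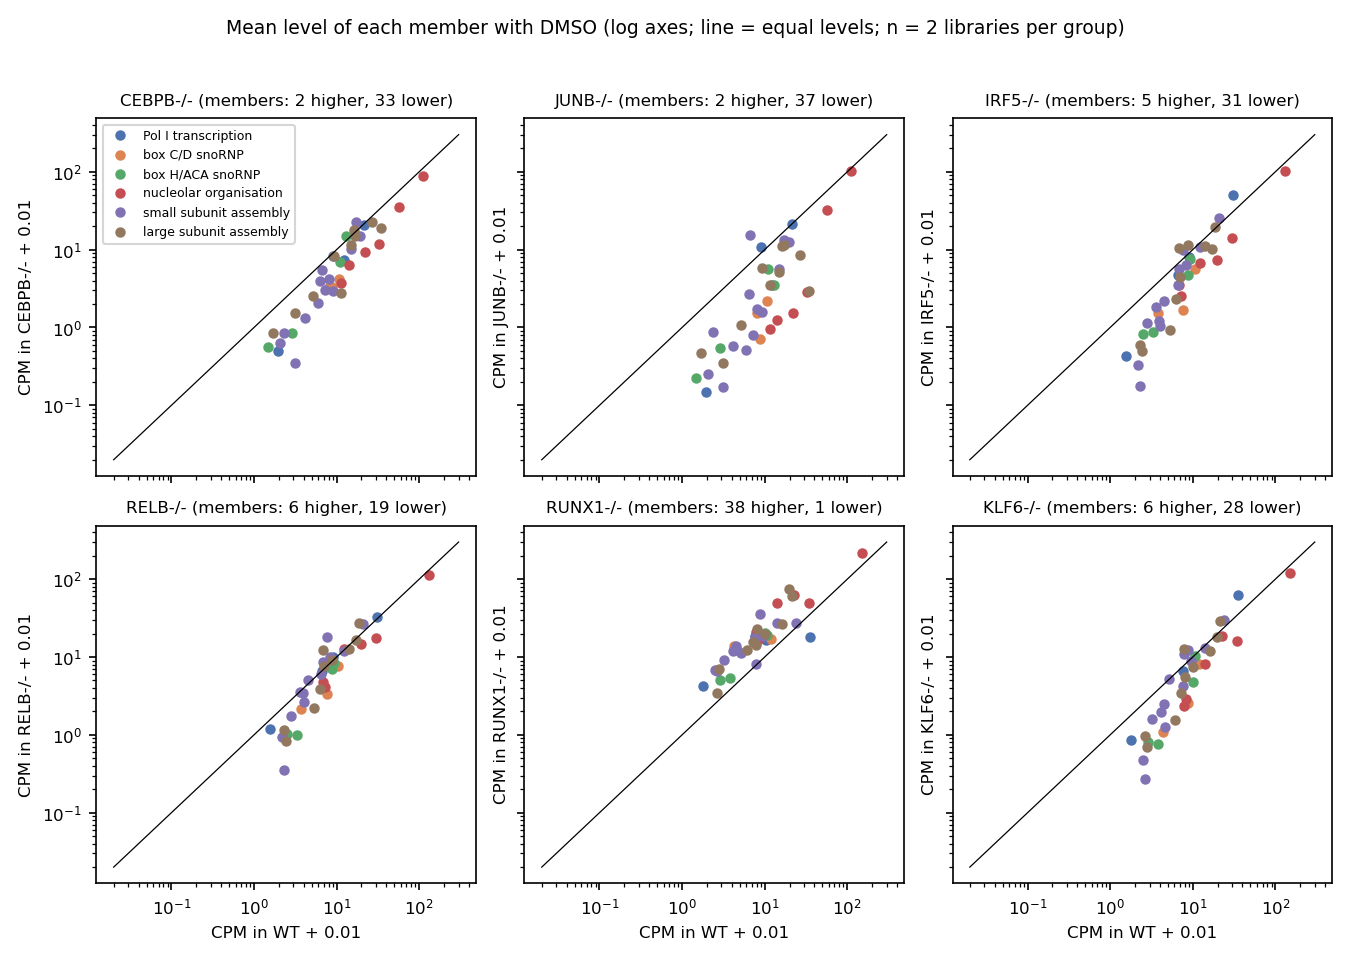
Mean TMM-scaled CPM of each of the 40 genes in the knockout (vertical) against WT (horizontal) cells with DMSO, on log axes with 0.01 CPM added, coloured by role; the line marks equal levels and each mean is of 2 libraries. In the RUNX1-/- panel all points but Polr1a lie above the line or on it, whereas in the JUNB-/- panel nearly all lie below it, furthest for the low-abundance genes.

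The JUNB-/- cells stood at the other end. Here 37 of 40 members fell and 2 rose, against 41.1% of 12899 genes lower and 35.4% higher; 29 fell by at least 2-fold, against 24.4% of genes. The median member change was -2.06 (log2), that of all genes -0.12. Noc2l had 3.36 and 2.52 CPM in JUNB-/- cells and 32.9 and 35.1 CPM in WT cells (-3.52 ± 0.10, adjusted p 5.06e-37), and Ddx21 had 3.26 and 2.45 CPM in JUNB-/- cells and 33.5 and 31.7 CPM in WT cells (-3.50 ± 0.10, 1.18e-37). Pes1 had 8.56 and 8.42 CPM in JUNB-/- cells and 26.1 and 27.7 CPM in WT cells (-1.66 ± 0.09, 5.69e-25). The 2 groups were far apart in these genes, with no overlap.

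The size of the fall in JUNB-/- cells varied widely among genes of 1 role. All 6 nucleolar organisers fell. Mybbp1a had 1.65 and 1.45 CPM in JUNB-/- cells and 21.1 and 23.4 CPM in WT cells (-3.84 ± 0.13), whereas Npm1 had 33.3 and 30.4 CPM in JUNB-/- cells and 57.3 and 55.9 CPM in WT cells (-0.83 ± 0.05). Ncl had 100 and 103 CPM in JUNB-/- cells and 110 and 114 CPM in WT cells (-0.14 ± 0.04, adjusted p 0.00102), the smallest of the called falls. All 3 box C/D and all 4 box H/ACA proteins fell. Nop58 had 0.604 and 0.779 CPM in JUNB-/- cells and 9.13 and 8.51 CPM in WT cells, Nop56 had 2.59 and 1.78 CPM against 10.5 and 10.8 CPM, and Fbl had 1.38 and 1.63 CPM against 7.75 and 8.33 CPM. Nop10 had 3.19 and 3.86 CPM in JUNB-/- cells and 13.6 and 12.4 CPM in WT cells, and Nhp2 had 5.91 and 5.49 CPM against 10.8 and 11 CPM.

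Against this majority, Bysl rose in JUNB-/- cells, with 14 and 16.6 CPM, against 6.80 and 6.32 CPM in WT cells (1.22 ± 0.10, adjusted p 6.23e-16). Polr1c was called higher, with 11.1 and 10.3 CPM in JUNB-/- cells and 8.62 and 9.54 CPM in WT cells (0.24 ± 0.10, 0.019), a direction that total-count scaling turned to -0.31, where no polymerase I gene was higher and all 4 were lower. Polr1a was the 1 member not called, with 20.4 and 22.1 CPM in JUNB-/- cells and 21.4 and 21.5 CPM in WT cells (-0.02). Rrn3 had 3.19 and 3.82 CPM in JUNB-/- cells and 13.1 and 11.2 CPM in WT cells.

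Among CEBPB-/- cells the pattern was less deep: 33 members fell and 2 rose, against 36.9% of genes lower and 33.6% higher; 21 fell by at least 2-fold, against 18.9% of genes. The median member change was -1.0 and that of all genes -0.05. All 3 box C/D proteins, all 6 nucleolar organisers, 11 of 13 small subunit and 8 of 10 large subunit factors fell. Ddx21 had 11.4 and 12.4 CPM in CEBPB-/- cells and 33.5 and 31.7 CPM in WT cells (-1.46 ± 0.07, adjusted p 3.04e-25). Noc2l had 19.4 and 18.6 CPM in CEBPB-/- cells and 32.9 and 35.1 CPM in WT cells (-0.84 ± 0.07, 1.18e-15), and Npm1 had 35.2 and 36.1 CPM against 57.3 and 55.9 CPM (-0.67 ± 0.05, 1.93e-17). These CEBPB-/- levels lay below WT but above those of the JUNB-/- cells for Ddx21 and Noc2l.

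Heatr1 rose in CEBPB-/- cells, with 22.3 and 23.1 CPM, against 17.7 and 16.8 CPM in WT cells (0.40 ± 0.07, adjusted p 1.79e-06), but its change was 0.044 and no longer called with total-count scaling, under which no member was higher and 38 were lower. Nop10 was also called higher, with 15.9 and 14.4 CPM in CEBPB-/- cells and 13.6 and 12.4 CPM in WT cells (0.22 ± 0.09, 0.0258), which total-count scaling turned to -0.13. Not called were Polr1a (-0.05), Polr1c (-0.13), Rrp1b (-0.17), Nop2 (0.12) and Bysl (-0.25). Pes1 had 20.7 and 24.4 CPM in CEBPB-/- cells and 26.1 and 27.7 CPM in WT cells, Utp18 had 10.3 and 9.85 CPM against 15 and 14.8 CPM, and Wdr3 had 15.2 and 14.7 CPM against 19.2 and 19.6 CPM. Rrn3 had 7.11 and 7.56 CPM in CEBPB-/- cells and 13.1 and 11.2 CPM in WT cells.

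In set 2, 31 members fell and 5 rose in IRF5-/- cells, against 29.6% of 13779 genes lower and 35% higher, with a member median of -0.93 and an all-gene median of 0.04; 18 fell by at least 2-fold, against 14% of genes. Ddx21 had 6.97 and 7.55 CPM in IRF5-/- cells and 20.1 and 18.9 CPM in WT cells (-1.42 ± 0.08, adjusted p 5.18e-26). Npm1 had 13.7 and 14.4 CPM in IRF5-/- cells and 29.5 and 30.0 CPM in WT cells (-1.08 ± 0.07, 7.15e-25), and Ncl had 105 and 99.3 CPM against 131 and 129 CPM (-0.35 ± 0.03, 4.32e-17). The IRF5-/- libraries lay below WT in all 3. Polr1a rose, with 50.8 and 49.2 CPM in IRF5-/- cells and 30.8 and 30.9 CPM in WT cells (0.70 ± 0.05, 1.1e-20). The other members that rose were Rrp1b, which binds rRNA and chromatin (0.61), Nop2, an rRNA cytosine methyltransferase (0.40), Heatr1 (0.39) and Wdr3 (0.28).

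In RELB-/- cells fewer members were called. There 19 members fell and 6 rose, against 27.3% of genes lower and 32.1% higher, with a member median of -0.19 and an all-gene median of 0.04; 15 members were not called. All 3 box C/D proteins, 3 of 4 box H/ACA proteins and 5 of 6 nucleolar organisers fell, while the small subunit split evenly at 4 higher and 4 lower and no polymerase I gene was called. Npm1 had 18.1 and 16.7 CPM in RELB-/- cells and 29.5 and 30.0 CPM in WT cells (-0.77 ± 0.06, adjusted p 1.84e-18), and Ddx21 had 15.2 and 13.8 CPM against 20.1 and 18.9 CPM (-0.43 ± 0.07, 3.36e-07). Heatr1 rose, with 18.5 and 17.3 CPM in RELB-/- cells and 7.73 and 7.36 CPM in WT cells (1.25 ± 0.09, 6.67e-22). Pes1 rose as well, with 27.5 and 26.9 CPM in RELB-/- cells and 18.2 and 18.7 CPM in WT cells (0.56 ± 0.07, 1.71e-11), as did Rrp1b (0.83) and Wdr3 (0.35).

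In KLF6-/- cells 28 members fell and 6 rose, against 33.9% of genes lower and 30% higher, with a member median of -0.82 and an all-gene median of -0.04; 18 fell by at least 2-fold, against 15.4% of genes. Npm1 had 16.8 and 15.7 CPM in KLF6-/- cells and 33.9 and 34.5 CPM in WT cells (-1.07 ± 0.06, adjusted p 1.91e-24), and Mybbp1a had 8.07 and 8.02 CPM against 15.3 and 12.8 CPM (-0.80 ± 0.09, 7.93e-12). Fbl had 1.06 and 1.08 CPM in KLF6-/- cells and 4.63 and 3.97 CPM in WT cells, and Nop58 had 2.27 and 2.90 CPM against 8.56 and 8.77 CPM. Polr1a rose, with 63.2 and 61.9 CPM in KLF6-/- cells and 35.4 and 35.5 CPM in WT cells (0.82 ± 0.05, 1.21e-24), and so did Rrp1b (0.68), Heatr1 (0.49), Bysl (0.48), Pes1 (0.46) and Wdr3 (0.35). In this later table Polr1a was thus lowest in RUNX1-/-, intermediate in WT and highest in KLF6-/- cells, and Npm1 ran in the opposite order.

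Utp20 had the largest fall in each of the 5 lines in which more members fell than rose; it lies outside the naming rule and was singled out after its values were seen. It had 0.270 and 0.411 CPM in CEBPB-/- cells and 0.0672 and 0.260 CPM in JUNB-/- cells, against 2.90 and 3.32 CPM in WT cells of set 1 (-3.17 ± 0.29 and -4.25 ± 0.35). It had 0.170 and 0.161 CPM in IRF5-/- cells and 0.427 and 0.263 CPM in RELB-/- cells, against 2.25 and 2.30 CPM in WT cells of set 2 (-3.75 ± 0.36 and -2.69 ± 0.30). It had 0.288 and 0.228 CPM in KLF6-/- cells, against 2.58 and 2.65 CPM in WT cells (-3.32 ± 0.31), and it rose in RUNX1-/- cells to 6.59 and 6.77 CPM (1.35 ± 0.16). These are low counts: Utp20 had 2 and 7 read pairs in the JUNB-/- libraries, 9 and 7 in the KLF6-/- libraries and 123 and 129 in the WT libraries of set 1.

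**Figure D4:**
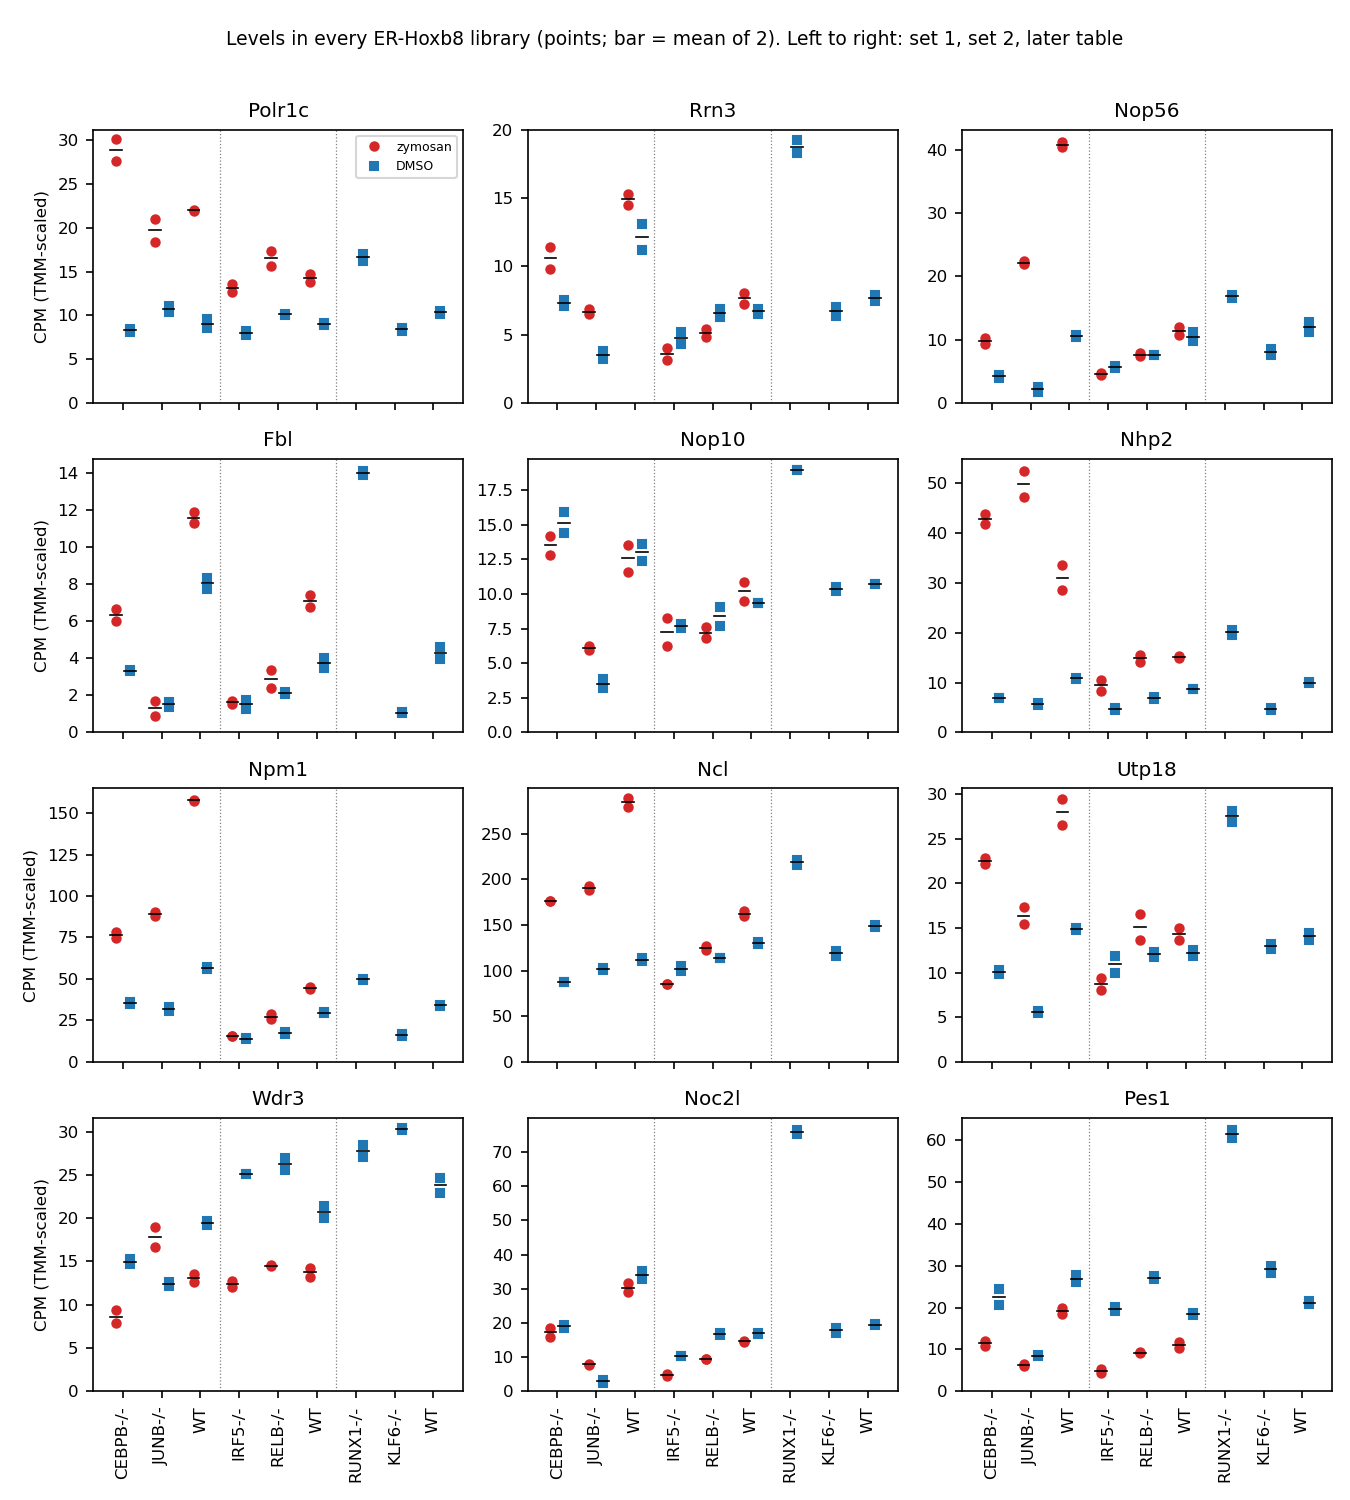
TMM-scaled CPM of 12 members, the 2 most abundant of each role, in every ER-Hoxb8 library (red circles zymosan, blue squares DMSO; bars are means of 2 libraries; dotted lines separate set 1, set 2 and the later table). Replicates lie close together relative to the gaps between most groups, for example 222 and 216 CPM of Ncl in RUNX1-/- against 150 and 148 CPM in WT cells with DMSO.

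Other genes of the pathway, listed by role in companion lists, were read in the same way. These lists were chosen with earlier results of these data known, so they are not an independent check of the members. The shares of all genes called in each line with DMSO, given above, are the background for these lists and the marker lists. By TMM scaling they were 37.7% higher and 35.1% lower in RUNX1-/- cells, and 35.4% higher and 41.1% lower in JUNB-/- cells. In RUNX1-/- cells 27 of 29 other small subunit factors rose and 0 fell (median 1.08), 34 of 39 other large subunit factors rose and 3 fell (1.01), and 7 of 9 snoRNP assembly genes rose and 0 fell (1.11). In the same cells 10 of 13 other polymerase I genes rose and 1 fell (0.46), and 11 of 13 nuclear exosome genes rose and 1 fell (0.78). Nob1, the nuclease that ends small subunit maturation, had a mean of 19 CPM in RUNX1-/- cells and 4.76 CPM in WT cells (2.00 ± 0.11, adjusted p 5e-27). Wdr46, a processome scaffold, had 17.2 CPM against 4.57 CPM (1.92 ± 0.11, 4.18e-26), and Nol11, which supports rDNA transcription, had 17.7 CPM against 5.45 CPM (1.70 ± 0.10, 2.47e-24). Of 47 cytosolic ribosomal protein genes 37 rose and 4 fell (0.42), with a summed level of 4220 to 4230 CPM in RUNX1-/- cells, against 3470 to 3610 CPM in WT cells. Npm1 and the ribosomal protein genes have processed pseudogenes, and since uniquely mapped reads alone were counted, reads shared with a copy are missing from their counts.

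In JUNB-/- cells the assembly factors and the ribosomal proteins went opposite ways. There 21 of 29 other small subunit factors fell and 5 rose (median -0.93), 31 of 39 other large subunit factors fell and 4 rose (-1.03), and 43 of 47 ribosomal protein genes rose and 2 fell (0.68). With total-count scaling these counts were 27 and 1, 35 and 4, and 29 and 12 with a ribosomal protein median of 0.13. Pdcd11, a processome scaffold, had a mean of 0.411 CPM in JUNB-/- cells and 8.25 CPM in WT cells (-4.33 ± 0.22, adjusted p 3.98e-25), whereas Pwp1, a WD-repeat protein of the large subunit list, had 65.5 CPM against 9.12 CPM (2.84 ± 0.06, 3.69e-43). Rps24, a small subunit protein, had 323 CPM in JUNB-/- cells and 103 CPM in WT cells (1.66 ± 0.04, 1.95e-41).

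As for CEBPB-/- cells, 16 of 29 other small subunit factors fell and 6 rose (-0.38; 23 and 0 with total-count scaling) and 29 of 39 other large subunit factors fell and 6 rose (-0.70; 33 and 2). The ribosomal proteins, 26 higher and 10 lower in CEBPB-/- cells (0.15), turned to 8 higher and 29 lower (-0.20) with total-count scaling, so they have no direction free of the scaling. In KLF6-/- cells 18 of the other small subunit factors fell and 5 rose, and in IRF5-/- cells 11 fell and 5 rose (13 and 3 with total-count scaling), while in RELB-/- cells 6 fell and 10 rose. Among the other large subunit factors 15 fell and 9 rose in KLF6-/- cells (21 and 6), 20 fell and 8 rose in IRF5-/- cells (23 and 5), and 10 fell and 14 rose in RELB-/- cells. Of all genes 36.9% fell and 33.6% rose in CEBPB-/- cells, and 33.9% and 30% in KLF6-/- cells. The shares were 29.6% and 35% in IRF5-/- cells, and 27.3% and 32.1% in RELB-/- cells. In RELB-/- cells the counts of both lists lie near these shares, as do the large subunit counts in KLF6-/- cells. The ribosomal proteins were 18 higher and 9 lower in KLF6-/- cells (11 and 14 with total-count scaling), 6 and 23 in IRF5-/- cells (2 and 30), and 2 and 28 in RELB-/- cells.

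Markers of maturity, division and other cell types also differed between these lines. Most cell cycle genes fell in all 6 lines: 19 of 20 in CEBPB-/- (sum 53.1 to 54.6 CPM) and 17 in JUNB-/- cells (92.2 to 94.1 CPM), against 178 to 181 CPM in WT cells of set 1; 19 in IRF5-/- (79.2 to 81.3 CPM) and 19 in RELB-/- cells (83.1 to 86.1 CPM), against 198 to 201 CPM in WT cells of set 2. Against the later WT libraries, 19 of 20 fell and 1 rose in RUNX1-/- cells (93.1 to 94.5 CPM) and 18 in KLF6-/- cells (122 to 123 CPM), against 228 to 230 CPM in WT cells. No cell cycle gene was at 0 in a whole group. Thus RUNX1-/- cells had lower cell cycle genes and higher ribosome biogenesis genes than WT, and the other 5 lines had lower levels of both.

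Mature neutrophil markers moved the other way from the 40 genes in most lines. Of 12, with none at 0 in any group, 12 fell in RUNX1-/- cells (sum 15900 to 16000 CPM; 10 fell and 2 rose with total-count scaling) while 8 rose and 3 fell in KLF6-/- cells (69200 to 72700 CPM; 6 and 4), against 56400 to 58900 CPM in WT cells. In JUNB-/- cells 12 rose (78900 to 86000 CPM; 10 rose and 2 fell with total-count scaling) and in CEBPB-/- cells 10 rose and 2 fell (57500 to 58800 CPM), against 26800 to 28500 CPM in WT cells of set 1. In IRF5-/- cells 10 rose and 2 fell (64300 to 66500 CPM) and in RELB-/- cells 9 rose and 3 fell (55000 to 55400 CPM), against 49100 to 51200 CPM in WT cells of set 2.

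Eosinophil and mast cell markers were lower in every knockout. They summed to 293 to 314 CPM in CEBPB-/- and 133 to 139 CPM in JUNB-/- cells, against 1710 to 1720 CPM in WT cells, with 8 and 7 of 8 tested genes called lower. They summed to 556 to 571 CPM in IRF5-/- and 259 to 260 CPM in RELB-/- cells, against 3770 to 3860 CPM in WT cells (8 and 8 of 8 lower). They summed to 410 to 422 CPM in RUNX1-/- and 334 to 348 CPM in KLF6-/- cells, against 4330 to 4450 CPM in WT cells (7 lower and 1 higher, and 8 of 8 lower). Fcer1a, a receptor chain of mast cells and basophils, was at 0 in all 6 knockouts with DMSO, and Ms4a2, its partner chain, at 0 in RUNX1-/- cells; neither was at 0 in WT cells. Monocyte and macrophage markers summed to 1320 to 1330 CPM in CEBPB-/- (9 lower and 2 higher; all 11 lower with total-count scaling) and 891 CPM in JUNB-/- cells (10 lower, 1 higher), against 1640 to 1650 CPM in WT cells. They summed to 674 to 678 CPM in IRF5-/- (12 lower) and 1030 CPM in RELB-/- cells (9 lower, 3 higher), against 1190 to 1200 CPM in WT cells, and to 1730 to 1740 CPM in RUNX1-/- (6 lower, 5 higher) and 1000 to 1010 CPM in KLF6-/- cells (11 lower, 1 higher), against 1360 to 1380 CPM in WT cells. Of these, Ly86 was at 0 in JUNB-/-, IRF5-/-, RELB-/-, RUNX1-/- and KLF6-/- cells, and at 0 in no WT group. Progenitor markers summed to 333 to 336 CPM in RUNX1-/- cells, against 215 to 221 CPM in WT cells, with 3 of 10 called higher and 7 lower. Their sums in the other 5 knockouts are not given here. The progenitor marker Hoxa9 was at 0 in all 6 knockouts with DMSO, and Sox4 was at 0 in KLF6-/- cells. Neither was at 0 in WT cells. The part of these other cell types and stages in the levels of the 40 genes was not tested.

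With zymosan most members were again lower in the knockouts. In CEBPB-/- cells 30 fell and 3 rose against WT (all genes 32.9% lower, 35% higher; member median -0.77, all genes -0.01), and in JUNB-/- cells 33 fell and 6 rose (37.4% and 39.1%; -1.52 and -0.01). In IRF5-/- cells 33 fell and 2 rose (30.8% and 29.6%; -1.38 and -0.02), and in RELB-/- cells 26 fell and 3 rose (28.9% and 27.1%; -0.61 and -0.03). The member median lay further from 0 with zymosan than with DMSO in IRF5-/- and RELB-/- cells, and nearer to 0 in CEBPB-/- and JUNB-/- cells. The interaction terms given below test single genes, and the shifts of the medians were not tested.

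Heatr1 stood out against the majority in set 1. With zymosan it had 43.4 and 42.5 CPM in CEBPB-/- cells and 51.0 and 51.4 CPM in JUNB-/- cells, against 20.5 and 21.8 CPM in WT cells (1.02 ± 0.07, adjusted p 2.9e-18, and 1.27 ± 0.07, 4.1e-24). Nhp2 had 43.8 and 41.8 CPM in CEBPB-/- cells and 52.5 and 47.3 CPM in JUNB-/- cells, against 33.6 and 28.6 CPM in WT cells (0.47 ± 0.08 and 0.69 ± 0.07); total-count scaling turned the CEBPB-/- value to -0.11. Polr1c, at 0.39 in CEBPB-/- cells, turned to -0.19 in the same way. Npm1 had 74.4 and 78.3 CPM in CEBPB-/- cells and 90.4 and 87.9 CPM in JUNB-/- cells, against 158 and 158 CPM in WT cells (-1.05 ± 0.05 and -0.82 ± 0.05). Both knockouts were above WT in Heatr1 and below WT in Npm1.

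Noc2l with zymosan had 18.6 and 15.9 CPM in CEBPB-/- cells and 7.69 and 8.11 CPM in JUNB-/- cells, against 31.6 and 29.1 CPM in WT cells (-0.80 ± 0.09 and -1.93 ± 0.10). The box C/D scaffold Nop56 had 9.34 and 10.3 CPM in CEBPB-/- cells and 22 and 22.4 CPM in JUNB-/- cells, against 40.4 and 41.3 CPM in WT cells (-2.06 ± 0.10 and -0.88 in log2). In set 2, Npm1 had 15.8 and 15.4 CPM in IRF5-/- cells and 26.0 and 28.7 CPM in RELB-/- cells, against 43.9 and 45.2 CPM in WT cells (-1.51 ± 0.08, adjusted p 3.5e-29, and -0.71 ± 0.07, 9.68e-16). Ncl had 85.7 and 84.8 CPM in IRF5-/- cells and 127 and 123 CPM in RELB-/- cells, against 159 and 165 CPM in WT cells (-0.93 ± 0.04 and -0.38 ± 0.03). Polr1a was higher in both, with 44.8 and 43.1 CPM in IRF5-/- cells and 31.9 and 29.9 CPM in RELB-/- cells, against 22.8 and 20.5 CPM in WT cells (1.03 ± 0.07, 1.29e-22, and 0.52 ± 0.07, 9.88e-10).

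The response to zymosan itself depended on the line and on the scaling. In WT cells of set 1, 23 members rose and 9 fell with zymosan (all genes 35.7% higher, 39.9% lower; member median 0.30, all genes -0.07), and in WT cells of set 2, 22 rose and 7 fell (36.3% and 32.1%; 0.33 and 0.05). In CEBPB-/- cells 21 rose and 7 fell (35.1% and 38.4%; 0.54 and -0.09), and in JUNB-/- cells 26 rose and 5 fell (36.5% and 36.7%; 0.83 and -0.01). In IRF5-/- cells 9 rose and 14 fell (34.3% and 35.4%; -0.15 and -0.02), and in RELB-/- cells 12 rose and 17 fell (35.2% and 37.5%; -0.22 and -0.05). Without the second zymosan library of WT cells, 13 members in place of 22 were called higher in WT cells of set 2.

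Without scaling factors, that is per total count, the same libraries gave other splits. They were 13 higher and 20 lower in WT cells of set 1 (member median -0.40, all genes -0.77), 1 and 27 in WT cells of set 2 (-0.54 and -0.82), 13 and 18 in CEBPB-/- cells (-0.39 and -1.02), 16 and 9 in JUNB-/- cells (0.15 and -0.69), 2 and 29 in IRF5-/- cells (-1.09 and -0.96), and 2 and 31 in RELB-/- cells (-1.10 and -0.94). The all-gene median was negative in every line by this scaling. Of the 12395 genes tested in both sets, 48.7% were called lower in all 6 lines and 9.43% higher. The member splits are therefore not read apart from that general fall. The member median lay above that of all genes in the WT cells of both sets and in the set 1 knockouts. It lay below that of all genes in the set 2 knockouts. A change of scaling moves all genes alike, so this gap is not tested by it. By TMM scaling the summed level of the 40 genes was 1050 and 1050 CPM with zymosan against 593 and 599 CPM with DMSO in WT cells of set 1. In WT cells of set 2 it was 567 and 584 CPM against 475 and 470 CPM. Their share of the total counts was 0.1036 and 0.1037% with zymosan against 0.0949 and 0.0965% with DMSO in WT cells of set 1. In WT cells of set 2 this share was lower with zymosan, at 0.0434 and 0.0449% against 0.0666 and 0.0664%. The direction of the set 2 sum therefore depends on the scaling.

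**Figure D5:**
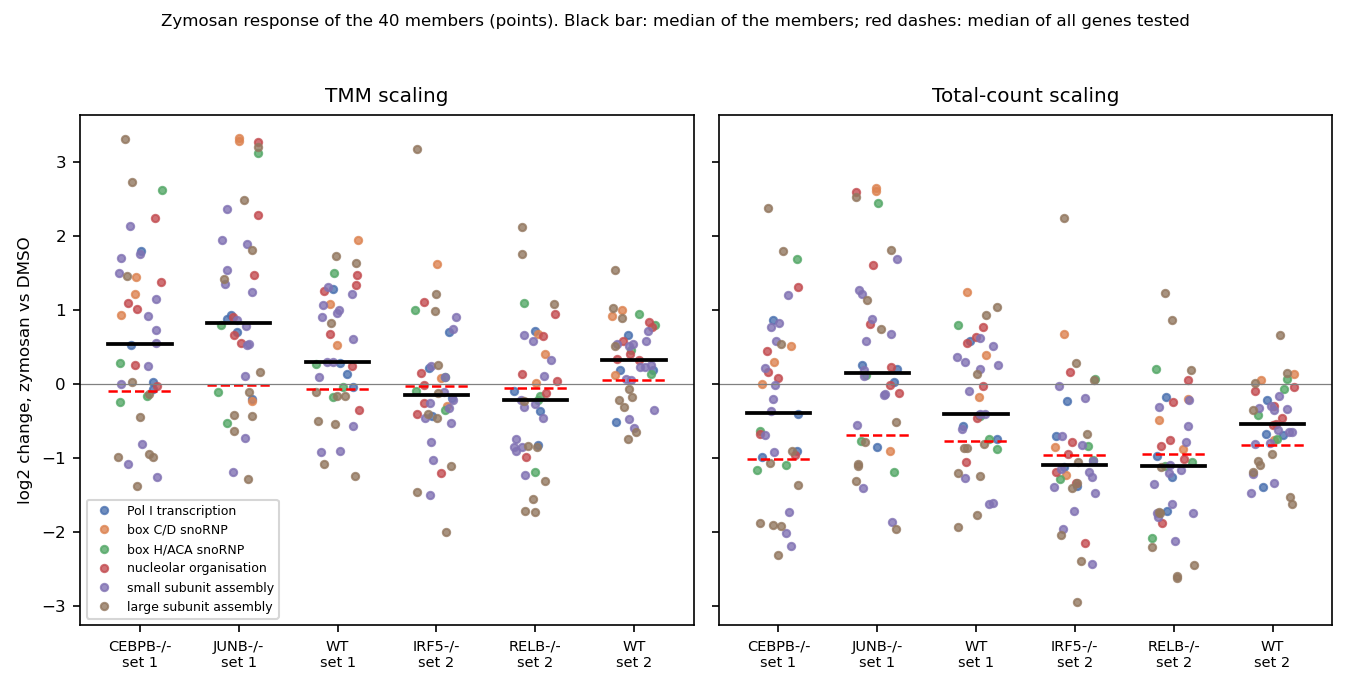
Log2 change with zymosan over DMSO of each of the 40 genes in the 6 lines (points, coloured by role), with TMM scaling (left) and total-count scaling (right); black bars are member medians and red dashes medians of all genes tested. The black bar lies above the red dashes in CEBPB-/-, JUNB-/- and both WT lines and below them in IRF5-/- and RELB-/- cells; the panels differ in the position of 0 and not in this gap, since scaling moves all genes alike.

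WT cells of set 1 and of set 2 are counted as 2 lines here, though the labels do not say that they are different lines. By TMM scaling 8 of the 40 members (20%) rose with zymosan in all 6 lines, whose libraries are separate, against 21.5% of the 12395 genes tested in both sets. They were Polr1c, Nop58, Nhp2, Ddx21, Nop14, Nop16, Rrs1 and Gnl3. Another 3 (7.5%) fell in all 6, Bysl, Pes1 and Nop2, against 22.3% of genes. Per total count, Rrs1 was the 1 member higher in all 6 (2.5%, against 9.43% of genes), and 8 were lower in all 6 (20%, against 48.7%): Dkc1, Noc4l, Bysl, Bop1, Pes1, Nop2, Rrp1b and Ebna1bp2. Pes1, Bysl and Nop2 therefore fell in each line under both scalings, and Rrs1 rose.

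Rrs1, which brings a ribonucleoprotein module into the large subunit precursor, rose in all 6 lines, by amounts that differed between them. With zymosan against DMSO it had 15.8 and 16.2 against 5.20 and 5.06 CPM in WT cells of set 1 (1.64 ± 0.10), 17.7 and 16.3 against 2.59 and 2.53 CPM in CEBPB-/- cells (2.73 ± 0.14), and 9.61 and 10.2 against 1.11 and 1.04 CPM in JUNB-/- cells (3.20 ± 0.17). In set 2 it had 15.5 and 15.7 against 5.20 and 5.52 CPM in WT cells (1.54 ± 0.11), 7.92 and 8.95 against 0.935 and 0.911 CPM in IRF5-/- cells (3.18 ± 0.18), and 9.45 and 9.75 against 2.32 and 2.05 CPM in RELB-/- cells (2.13 ± 0.14). The zymosan and DMSO libraries did not overlap in any line, and each adjusted p was at most 3.05e-21. Gnl3, the GTPase nucleostemin, had 38.0 and 38.3 CPM with zymosan against 11.3 and 11.6 CPM with DMSO in WT cells of set 1, and 29.2 and 25.5 against 2.63 and 2.91 CPM in CEBPB-/- cells (3.31 ± 0.12).

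Pes1 fell in every line. It had 19.8 and 18.4 CPM with zymosan against 26.1 and 27.7 CPM with DMSO in WT cells of set 1 (-0.50 ± 0.08, adjusted p 7e-08) and 10.3 and 11.7 against 18.2 and 18.7 CPM in WT cells of set 2 (-0.75 ± 0.09, 5.93e-12). It had 4.44 and 5.39 CPM with zymosan against 20.1 and 19.2 CPM with DMSO in IRF5-/- cells (-2.01 ± 0.11, 1.55e-27), and 9.13 and 9.36 against 27.5 and 26.9 CPM in RELB-/- cells (-1.56 ± 0.08, 3.15e-28). Its partner Bop1 fell in 5 of the 6 lines and was not called in WT cells of set 2 (-0.07). Wdr12, the third protein of that complex, fell in RELB-/- cells (-1.71), rose in WT cells of set 2 (0.52) and was not called in the others.

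The response of the abundant nucleolar proteins Npm1, Ncl and Ddx21 varied with the line. Npm1 had 158 and 158 CPM with zymosan against 57.3 and 55.9 CPM with DMSO in WT cells of set 1 (1.48 ± 0.05, adjusted p 3.24e-36), and Ncl had 289 and 279 against 110 and 114 CPM (1.34 ± 0.04, 5.52e-38). In WT cells of set 2 Npm1 had 43.9 and 45.2 against 29.5 and 30.0 CPM (0.58 ± 0.06) and Ncl had 159 and 165 against 131 and 129 CPM (0.32 ± 0.03), and total-count scaling turned these to -0.29 and -0.55. In IRF5-/- cells Ncl fell (-0.26 ± 0.04) and Npm1 was not called (0.15), and in RELB-/- cells Npm1 (0.64 ± 0.07) and Ncl (0.14 ± 0.03) were called higher, at -0.25 and -0.75 with total-count scaling. Ddx21 had 75.5 and 79.9 CPM with zymosan against 33.5 and 31.7 CPM with DMSO in WT cells of set 1 (1.25 ± 0.06), and 35.3 and 34.5 against 20.1 and 18.9 CPM in WT cells of set 2 (0.84 ± 0.07, total-count -0.03). In JUNB-/- cells Ddx21 had 27.9 and 27.6 against 3.26 and 2.45 CPM (3.27 ± 0.11, 2.29e-34) and Nop56 had 22 and 22.4 against 2.59 and 1.78 CPM (3.33 ± 0.12). Both were below WT with DMSO, and with zymosan both stayed below WT cells with zymosan. The zymosan level in JUNB-/- cells lay below WT with DMSO for Ddx21 and above it for Nop56.

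The interaction term of the fit tested whether a line's response to zymosan differed from that of its WT. In JUNB-/- cells it was higher for 17 members and lower for 3, against 28.1% and 15.4% of genes (member median 0.44, all genes 0.11). For CEBPB-/- cells it was higher for 9 and lower for 5, against 24.4% and 16.7% (0.03 and 0.03), and 7 and 9 with total-count scaling. In IRF5-/- cells it was higher for 3 and lower for 15, against 16.5% and 16.8% (-0.40 and -0.03), and in RELB-/- cells higher for 3 and lower for 16, against 16.1% and 15.3% (-0.41 and -0.04). Called in either direction were 20 of 40 members in JUNB-/- cells (43.6% of genes), 14 in CEBPB-/- (41%), 18 in IRF5-/- (33.3%) and 19 in RELB-/- cells (31.4%). The set 2 counts depend on single libraries: without the second zymosan library of RELB-/- cells 12 members were called, 4 higher and 8 lower, without the second zymosan library of WT cells 13 were, 4 higher and 9 lower, and the IRF5-/- count of 18 came to 12 without the first zymosan library of those cells.

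Ddx21 had the largest interaction in JUNB-/- cells among the more abundant members, 2.02 ± 0.13 (adjusted p 5.53e-20), followed by Heatr1 at 1.66 ± 0.10 (1.22e-20) and Nhp2 at 1.62 ± 0.13 (1.01e-16). In CEBPB-/- cells Nhp2 (1.12 ± 0.13, 3.37e-11), Ddx21 (0.99 ± 0.10, 6.36e-13) and Heatr1 (0.62 ± 0.10, 8.4e-07) also had a larger response than in WT cells. Ncl had a smaller response than WT in all 4 lines, by -0.32 ± 0.06 in CEBPB-/-, -0.43 ± 0.05 in JUNB-/-, -0.58 ± 0.05 in IRF5-/- and -0.19 ± 0.04 in RELB-/- cells; the first 2 share their WT libraries, as do the last 2. Pes1 had a lower response than WT in IRF5-/- (-1.26 ± 0.15, 5.16e-11) and RELB-/- cells (-0.81 ± 0.13, 1.68e-07), and Rrs1 a higher one (1.64 ± 0.22 and 0.59 ± 0.18).

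Myc and its antagonist Mxd1 were read beside the 40 genes. Myc had 28.8 and 30.6 CPM with zymosan against 0.202 and 0.411 CPM with DMSO in CEBPB-/- cells, 25.0 and 22.6 against 0.269 and 0.334 CPM in JUNB-/- cells, and 18.2 and 17.6 against 1.70 and 1.83 CPM in WT cells of set 1. In set 2 it had 28.4 and 29.4 against 0.142 and 0.241 CPM in IRF5-/- cells, 21 and 18.5 against 0.142 and 0.105 CPM in RELB-/- cells, and 32.9 and 33.1 against 0.836 and 0.917 CPM in WT cells. In the DMSO libraries of the later table it had 0.820 and 0.911 CPM in RUNX1-/- cells and 0.352 and 0.0326 CPM in KLF6-/- cells, against 0.961 and 1.05 CPM in WT cells. In the later table Mxd1 had 462 and 464 CPM in RUNX1-/- cells, against 2300 and 2300 CPM in WT cells (-2.31 in log2). KLF6-/- cells there had 1660 and 1630 CPM. Set 1 DMSO libraries had 1340 and 1340 (CEBPB-/-), 1710 and 1740 (JUNB-/-) and 980 and 975 CPM (WT). Those of set 2 had 1470 and 1480 (IRF5-/-), 1490 and 1510 (RELB-/-) and 2000 and 2000 CPM (WT). Mxd1 was higher with zymosan in every line, at 1980 and 1930 (WT, set 1) and 5110 and 5020 CPM (WT, set 2). In the tissues Mxd1 had 4060 to 7750 CPM in exudate, 6860 and 3940 CPM in membrane, 842 to 3010 CPM in blood and 569 to 916 CPM in bone marrow. What these 2 genes have to do with the levels of the 40 was not tested.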

How the data were processed

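Gene counts were deposited by the authors as whole numbers of read pairs per gene, made with featureCounts (1.5.0-p2 for the tissue table without strand, 1.6.3 for the ER-Hoxb8 tables with reverse strand) at a mapping quality of at least 255, per the file headers. STAR, Bowtie2, MACS2, DESeq2, cutadapt and deepTools, and the builds GRCm38 and mm10, are named in the submitters' processing notes. The deposited lists of accessible sites hold a score per site and, in the differential lists, a −log10 adjusted p, both the authors' own values. Their other columns, such as the assigned gene, were used as deposited. Of the set 1 columns, 18 match no sample and were not used, 10 of them sums of 2 other columns, and 12 columns of the later table are identical to set 2.

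The fits were edgeR 4.0.16 quasi-likelihood tests in R 4.3.3, 1 per table, on genes passing filterByExpr (minimum count 10, total 15, share 0.7), with TMM scaling, Benjamini-Hochberg adjustment over all genes tested and an adjusted p threshold of 0.05. Genes tested numbered 12330 (tissue), 12899 (set 1), 13779 (set 2) and 14177 (later). CPM are TMM-scaled, errors of log2 changes are SEs derived from the F statistic, and errors of TPM are SDs. IDs were paired with symbols for 50376 of 50600 genes (99.6%). Read depth was 9237737 to 34263252 counts per library, and counting error is largest for members with few reads. Replicates differed by more than counting noise in all 14 groups. Alternatives were total-count and RLE scaling, no filter, fits of the compared groups alone, DESeq2 1.42.0, a replicate block and leaving out each library. In the tissues they included the tag in the column names as a term, and tag and number as a block. Total-count values for the companion lists were added after seeing the data. The scripts were tested on simulated data, with 100 genes changed by a log2 of 1 and 100 by a log2 of 2. For exudate over bone marrow 0% of either were called, with the sign right in 63.8% and 74.2%. For CEBPB-/- over WT with DMSO 71.6% and 93.8% were called.

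The 40 members and the companion lists were chosen with earlier results of these data known. The text names the 2 members of each role with the highest TPM in set 1 WT cells with DMSO, up to 3 called members per comparison and direction with the largest change at a mean log2 CPM of at least 4 and no overlap of libraries, up to 4 members against the majority, the targeted genes, Myc, Mxd1 and up to 2 genes per companion list. Other members were named after their values were seen.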

Additional observations from a re-analysis of the deposited data

Results flagged for a closer look

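Chance meets Dixon's gap test in about 1 in 20 groups of normally distributed values, a rate that need not hold for sums carried mostly by 1 gene. By this test 1 tissue library stood apart from the others of its group in the summed level of 4 roles. They were RNA polymerase I genes in blood, at 32.8 CPM in library 3, of which Polr1a gave 30.9 CPM; box C/D genes in blood, at 3.81 CPM in library 3, of which Fbl gave 3.22 CPM; box H/ACA genes in exudate, at 15.4 CPM in library 4, of which Nop10 gave 15.2 CPM; and large subunit genes in exudate, at 149 CPM in library 1, of which Nop2 gave 148 CPM. In each case 1 gene made up nearly all of the sum.

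The response to zymosan differed from that of WT for 14 members in CEBPB-/- cells, 20 in JUNB-/- cells, 18 in IRF5-/- cells and 19 in RELB-/- cells, by the interaction term of the edgeR fit, against 41%, 43.6%, 33.3% and 31.4% of all genes in that order. In CEBPB-/- cells the differences in log2 change were 1.12 for Nhp2, 0.99 for Ddx21 and 0.62 for Heatr1, and -0.72 for Nop56, -0.49 for Pes1, -0.41 for Bop1, -0.38 for Npm1 and -0.32 for Ncl. In JUNB-/- cells they were 2.02 for Ddx21, 1.66 for Heatr1 and 1.62 for Nhp2, and -0.76 for Fbl, -0.43 for Ncl and -0.41 for Polr1c. In IRF5-/- cells they were 1.64 for Rrs1, 0.61 for Nop58 and 0.33 for Polr1a, and -1.26 for Pes1, -0.58 for Ncl and -0.43 for Wdr3. In RELB-/- cells they were 0.72 for Gnl3, 0.59 for Rrs1 and 0.43 for Polr1a, and -0.81 for Pes1 and -0.19 for Ncl.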

How the results depend on the processing

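DESeq2 called 1 member for exudate over blood and 2 each for exudate over bone marrow, membrane over blood and membrane over bone marrow, where edgeR called 0. Total-count scaling reversed the log2 change of Nop10 in CEBPB-/- (-0.13) and Polr1c in JUNB-/- cells (-0.31) with DMSO, of Nhp2 (-0.11) and Polr1c (-0.19) in CEBPB-/- cells with zymosan, and of the zymosan response of Ddx21 (-0.033), Npm1 (-0.29) and Ncl (-0.55) in WT cells of set 2 and of Npm1 (-0.25) and Ncl (-0.75) in RELB-/- cells. It also reversed the member median of the zymosan response in WT cells of set 1 (-0.40) and set 2 (-0.54), in CEBPB-/- cells (-0.39) and of their interaction (-0.20). Leaving out 1 library each moved that CEBPB-/- interaction median between -0.10 and 0.23, below 0 without the second CEBPB-/- DMSO library (-0.04) or either WT DMSO library (-0.03 and -0.10), and the interaction calls between 12 and 18 in IRF5-/- and 12 and 19 in RELB-/- cells. Without 1 library, the median zymosan response was 0.33 in CEBPB-/- cells (second DMSO library), -0.31 in IRF5-/- cells (first zymosan library) and -0.10 in RELB-/- cells (first DMSO library), and the JUNB-/- interaction median was 0.23 (second DMSO library). With the replicate block 28 members were called for zymosan in WT cells of set 2, against 29 without it, and no other ER-Hoxb8 count changed. Same-numbered libraries correlated at 0.0938 at most. With 2 libraries per group this cannot tell whether the numbers pair them. Among the named changes, 1387 of 1450 alternative values kept direction and call, 54 were no longer called and 9 reversed; the cause was not tested. In the tissues 19 of 40 members fell below the count filter and were not tested, and the common biological coefficient of variation was 1.86, against 0.0188 to 0.0278 in the ER-Hoxb8 tables.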
